A study of Mus musculus with 2 samples.

Results

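The ligands and receptors of the vascular endothelial growth factor (VEGF) family were followed through the cells of mouse ovarian tumors. The 9 genes, chosen by symbol from the 32285 genes counted, were the ligands Vegfa, Vegfb, Vegfc, Vegfd and Pgf, and the receptors and coreceptors Flt1, Kdr, Nrp1 and Nrp2. All 9 were found, and each gene was counted in at least 1 of the classes of cells described here. Female C57BL/6 mice of 6 to 8 weeks, whose peritoneal wall had been abraded, were injected intraperitoneally with syngeneic ovarian cancer cells (p53-/-, myc, Hras), and from the next day received control IgG or an Activin A neutralizing antibody daily. Per the labels the treatment lasted 10 days, with 7 mice on control IgG and 8 on the antibody, while the study's text gives other numbers for an experiment that may not be the same. Tumors from the abraded site were pooled within a group, dissociated without selection for a cell type, and made into 1 single-cell RNA library per group. Neither group had a replicate library, so the antibody cannot be told apart from any other difference between the libraries, and no test between groups was made. The cancer cells are a transplanted engineered line, and the abrasion is a wound that draws host fibroblasts, which limits both as a model of a spontaneous tumor.

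In this family VEGF-A, made by many cells short of oxygen, is the main growth factor of blood vessels and acts through VEGFR2, the product of Kdr. VEGFR1, the product of Flt1, binds VEGF-A, VEGF-B and placental growth factor (Pgf), signals weakly in endothelium, is also made as a soluble form that holds ligand back, and guides monocytes and macrophages. VEGF-C and VEGF-D act mainly on lymphatic vessels through VEGFR3, the product of Flt4, and the neuropilins Nrp1 and Nrp2 are coreceptors that also bind class 3 semaphorins. In ovarian tumors VEGF-A is known for leaky vessels and ascites.

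Of these genes, 3 are shown first by the 250 bases before their transcription start, since the main ligand and the receptor Flt1 were abundant in the same cancer-like cells while Kdr was almost absent from them. The sequences are RefSeq's (GRCm38.p6), 5′ to 3′ on the minus strand, on which all 3 genes lie, at chr17:46032378-46032627 for Vegfa, chr5:147726012-147726261 for Flt1 and chr5:75978456-75978705 for Kdr. Capitals mark the GC box GGGCGG, read on both strands.
Vegfa: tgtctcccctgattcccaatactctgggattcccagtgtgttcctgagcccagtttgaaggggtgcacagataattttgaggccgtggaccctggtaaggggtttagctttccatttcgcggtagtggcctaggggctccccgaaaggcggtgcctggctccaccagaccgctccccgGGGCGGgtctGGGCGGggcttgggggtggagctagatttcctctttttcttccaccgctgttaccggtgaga
Flt1: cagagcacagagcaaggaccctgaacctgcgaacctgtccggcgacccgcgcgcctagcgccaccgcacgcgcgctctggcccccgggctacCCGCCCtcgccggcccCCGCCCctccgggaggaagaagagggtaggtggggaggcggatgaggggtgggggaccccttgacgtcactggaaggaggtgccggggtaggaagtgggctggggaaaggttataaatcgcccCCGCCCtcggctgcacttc
Kdr: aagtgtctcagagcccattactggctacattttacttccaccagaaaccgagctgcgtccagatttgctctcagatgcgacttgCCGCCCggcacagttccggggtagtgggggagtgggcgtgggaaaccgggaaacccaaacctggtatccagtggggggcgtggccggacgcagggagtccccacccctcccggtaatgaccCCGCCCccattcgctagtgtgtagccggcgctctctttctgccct
The GC box occurred 2 times before Vegfa, 3 times before Flt1 and 2 times before Kdr, and at least once in 32.7% of 32851 promoter windows of the same length. The letters ACGTG, a form of the core bound by hypoxia-inducible factors, were also searched on both strands. They are in 16.6% of these windows but in none of these 3 windows. The form GCGTG, which these factors also bind, was not part of that search. The printed Kdr window holds it, and the Flt1 window holds its reverse complement CACGC. Its share over all windows was not counted. A second RefSeq start inside Vegfa has 1 match to ACGTG in its window (chr17:46025164-46025413). These letters say nothing of binding or of sites farther from the start.

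In GENCODE M21 (GRCm38) Vegfa lies at chr17:46016993-46032369, Vegfb at chr19:6982473-6987651, Vegfc at chr8:54077606-54187096, Vegfd at chrX:164373378-164402650 and Pgf at chr12:85166635-85177790. Flt1 lies at chr5:147561604-147726011, Kdr at chr5:75932827-75978458, Nrp1 at chr8:128358604-128503363 and Nrp2 at chr1:62703285-62818695. No other counted gene overlaps them, except that Gm29083 lies on the opposite strand of Nrp2. Counts are per gene, so the soluble and membrane forms of Flt1, and the isoforms of Vegfa, cannot be told apart.

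The control IgG library held 98174850 unique molecular identifiers (UMIs, each counted as 1 captured RNA molecule) and the antibody library 74117462, from which 8770 and 6386 cells were kept, with 19 cell barcodes found in both. Cells were assigned to a class by the class markers they carried, and levels are the UMIs of a gene per 1000000 UMIs of its class (CPM). Macrophage cells numbered 1783 with control IgG and 608 with the antibody, stromal cells 281 and 282, cancer-like cells 351 and 372, and dendritic cells 219 and 163. T or NK cells numbered 5605 and 4556. All 9 macrophage markers, 11 stromal, 8 cancer-like and 10 dendritic markers were detected in their own class in both libraries. Since the same markers made the classes, this does not support the class names. All 9 macrophage markers were also detected in stromal cells of both libraries. The macrophage markers summed to 14010 CPM in macrophage cells with control IgG and 9012 CPM with the antibody, and the 6 monocyte markers to 2016 and 2561 CPM. Markers of other cells in the same class also differed, with the stromal markers at 45.2 and 99.6 CPM and the red cell markers at 0.721 and 194 CPM. The class thus differed in make-up between the libraries, and the part of this in the values below was not tested. Blood endothelial cells, in which Kdr and Flt1 are best known, numbered 7 and 1, and lymphatic endothelial cells 1 and 1. Intervals in brackets are exact 95% intervals, or for a log2 ratio (antibody over control IgG) conditional binomial ones. Only counting error enters them, so they understate the spread of a gene whose UMIs sit in a small number of cells.

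**Figure D1:**
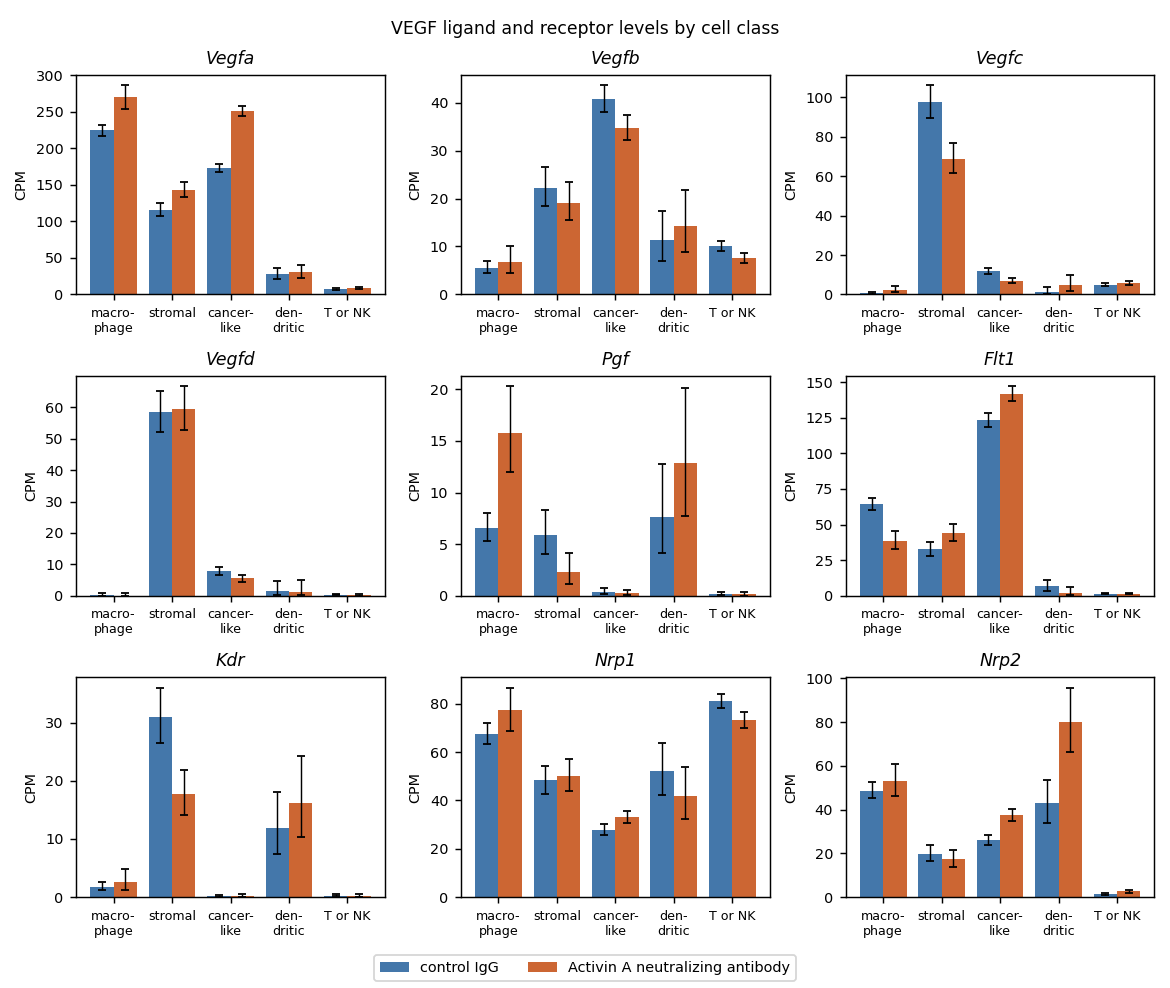
CPM (y axis, linear, from 0, with its own range for each gene) of the 9 genes in macrophage, stromal, cancer-like, dendritic and T or NK cells (x axis) of the control IgG library (blue) and the antibody library (orange). Bars are the level of 1 library each and lines the exact Poisson 95% interval; Vegfc and Vegfd stand highest in stromal cells, Flt1 in cancer-like cells, and Vegfa in macrophage and cancer-like cells.

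Vegfa was the ligand with the highest level in macrophage, cancer-like, stromal and dendritic cells, in both libraries. Its level was 225 CPM (217 to 233) in macrophage cells with control IgG and 269.9 CPM (254 to 287) with the antibody. In cancer-like cells it was 173 CPM (167 to 179) and 252 CPM (245 to 259), and in stromal cells 116 CPM (107 to 125) and 143 CPM (133 to 155). Macrophage cells thus led with control IgG, whereas with the antibody their interval overlapped that of cancer-like cells. Dendritic cells held 27.7 and 30.5 CPM, T or NK cells 7.48 and 8.44 CPM, and B or plasma cells 5.22 and 8.95 CPM. Neutrophils, with 26 and 38 cells, held 96.2 and 78.0 CPM, which overlapped stromal cells with control IgG.

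Vegfa was higher in the antibody library in the 3 classes that held most of it. The log2 ratio was 0.54 (0.48 to 0.61) in cancer-like cells, 0.31 (0.15 to 0.47) in stromal cells and 0.26 (0.16 to 0.37) in macrophage cells, and 0.14 (-0.47 to 0.74) in dendritic cells. None of these reached a 2-fold difference. In stromal cells the value fell to 0.06 when each cell was given equal weight. The free RNA, taken from barcodes with under 100 UMIs, held 82.2 CPM of Vegfa with control IgG and 138 CPM with the antibody, and so moved in the same direction. Once the estimated free RNA was subtracted, the log2 ratios were 0.53 in cancer-like cells, 0.30 in stromal cells and 0.25 in macrophage cells.

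Most cancer-like cells carried the transcript. A Vegfa UMI was found in 90.0% of them with control IgG and 90.6% with the antibody, at a median depth of 56921 and 54935 UMIs per cell. In macrophage cells, with a median of 7132 and 5611.5 UMIs, the shares were 56.3% and 47.5%. In T or NK cells, which should hold little of the gene, the shares were 3.85% and 3.49% at a median of 4789 and 4151 UMIs. With every cell thinned to 2000 UMIs, the macrophage shares were 30.9% in both libraries (1739 and 589 cells deep enough), and the cancer-like shares 28.9% and 33.3% (349 and 369 cells). The lower macrophage share in the antibody library was therefore not seen at equal depth.

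Within macrophage cells Vegfa differed more between some clusters than between the libraries. A cluster led by Arg1 (arginase, with C1qa and Cd14 among its leading genes) held 931 and 192 of the class, or 52.2% and 31.6%. A cluster led by Plcb1, F10, Osm and Il1b held 192 and 167 cells, and one led by Retnla, Lyz2 and Mmp12 held 579 and 197, so that Arg1 cells were the most numerous with control IgG and Retnla cells with the antibody. Vegfa stood at 305 CPM (control IgG) and 480.3 CPM (antibody) in the Arg1 cluster, for a log2 ratio of 0.66 (0.52 to 0.79). In the Plcb1 cluster it was 319 and 307 CPM, for a log2 ratio of -0.05 (-0.28 to 0.17). In the Retnla cluster it was 57.5 and 78.7 CPM, for a log2 ratio of 0.45 (0.09 to 0.80). The Arg1 and Plcb1 clusters thus held several times the level of the Retnla cluster in both libraries. With the clusters weighted as in the control IgG library, the log2 ratio of the whole class was 0.58 in place of 0.26.

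Stromal cells held Vegfa mainly in a cluster led by Acta2, Tagln and Slpi, of 135 and 75 cells, at 133 CPM with control IgG and 178 CPM with the antibody. That cluster held 517 of the 646 stromal UMIs with control IgG and 433 of the 689 with the antibody. A second stromal cluster, led by Clec3b, Gsn and Postn, with 140 and 190 cells, held 39.0 and 53.5 CPM (58 and 94 UMIs). Their log2 ratios were 0.42 (0.24 to 0.61) and 0.46 (-0.03 to 0.95), both within the interval of the whole class (0.31, 0.15 to 0.47). Acta2 cells made up 26.6% of the class in the antibody library and 48.0% with control IgG. With these clusters weighted as in the control IgG library, the log2 ratio was 0.43 in place of 0.31. Stromal cells of neither cluster, which held the remaining UMIs, were left out of that value.

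Vegfb, a ligand of VEGFR1 best known in heart and muscle, was highest, among the larger classes, in cancer-like cells. It stood there at 40.8 CPM (38.0 to 43.7) with control IgG and 34.7 CPM (32.2 to 37.4) with the antibody, for a log2 ratio of -0.23 (-0.38 to -0.08). Stromal cells held 22.2 and 19.2 CPM, dendritic cells 11.4 and 14.2 CPM, and macrophage cells 5.55 and 6.83 CPM. T or NK cells held 10.1 and 7.54 CPM, for a log2 ratio of -0.42 (-0.69 to -0.16). B or plasma cells held 17.4 CPM (10.6 to 26.9) and 21.5 CPM (11.1 to 37.5), which overlapped cancer-like cells with the antibody. Macrophage cells, first for Vegfa, were thus last of these classes for Vegfb. The few skeletal muscle cells (32 and 15) held 65.3 CPM (34.8 to 112) and 148 CPM (76.3 to 258), which overlapped cancer-like cells with control IgG but not with the antibody. Free RNA held 12.1 CPM of Vegfb in both libraries.

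Vegfc and Vegfd, the ligands of lymphatic vessels, were highest in stromal cells. Vegfc was counted there at 97.7 CPM (89.7 to 106) with control IgG and 68.9 CPM (61.7 to 76.8) with the antibody. Cancer-like cells held 12.0 CPM (10.5 to 13.6) and 6.90 CPM (5.79 to 8.15). Its log2 ratio was -0.50 (-0.71 to -0.30) in stromal and -0.80 (-1.11 to -0.49) in cancer-like cells, lower with the antibody in both. Macrophage cells had 10 and 9 UMIs of Vegfc and dendritic cells 2 and 7, too few for a ratio. The Acta2 cluster held more of it (120 CPM with control IgG and 101 CPM with the antibody) than the Clec3b cluster (47.1 and 38.7 CPM). The log2 ratios within the clusters were -0.25 (-0.48 to -0.02) and -0.28 (-0.79 to 0.22), and the class value with the clusters weighted as in the control IgG library was -0.25 in place of -0.50. The stromal class also held cells with at least 2 of 7 markers of mesothelium, the lining of the peritoneum. These held 121 CPM of Vegfc with control IgG and 89.8 CPM with the antibody, and the other stromal cells 63.4 and 49.8 CPM.

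Vegfc was also found outside the tumor and its stroma. T or NK cells held 178 and 143 UMIs (4.95 and 5.83 CPM), and these lay almost entirely in 2 clusters. A cluster led by Klra8, a Ly49 receptor gene of NK cells, held 107 and 85 of the UMIs at 96.7 and 72.7 CPM. A cluster led by Gzmc, a granzyme gene, held 61 and 49 at 37.2 and 46.0 CPM. In the other clusters of the class with at least 15 cells in each library, Vegfc had at most 3 UMIs in a library. The level in the Klra8 cluster was close to that of stromal cells, with a log2 ratio of -0.41 (-0.84 to 0.01) between the libraries.

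Vegfd was more narrowly placed. Stromal cells held 58.5 CPM (52.3 to 65.2) with control IgG and 59.4 CPM (52.7 to 66.7) with the antibody, for a log2 ratio of 0.02 (-0.21 to 0.26). Cancer-like cells held 7.87 CPM (6.68 to 9.21) and 5.50 CPM (4.52 to 6.63), for a log2 ratio of -0.52 (-0.88 to -0.16), which turned to 0.66 when every cell was thinned to 2000 UMIs. Macrophage cells had 4 UMIs and 0 UMIs, where a count of 0 allows up to 0.788 CPM (3 counts), and T or NK cells 12 and 5. Here the Clec3b cluster led, with 161 CPM with control IgG and 120 CPM with the antibody, against 21.5 and 29.6 CPM in the Acta2 cluster. Vegfd was lower with the antibody within the Clec3b cluster, at a log2 ratio of -0.43 (-0.70 to -0.15), while the ratio of the whole class lay at 0.02, and Clec3b cells made up 49.8% of the class with control IgG and 67.4% with the antibody. Of the 2 clusters Vegfc was thus higher in Acta2 cells and Vegfd in Clec3b cells, in both libraries. Stromal cells with mesothelial markers held 24.5 CPM of Vegfd with control IgG and 31.8 CPM with the antibody, and those without 108 and 84.5 CPM.

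**Figure D2:**
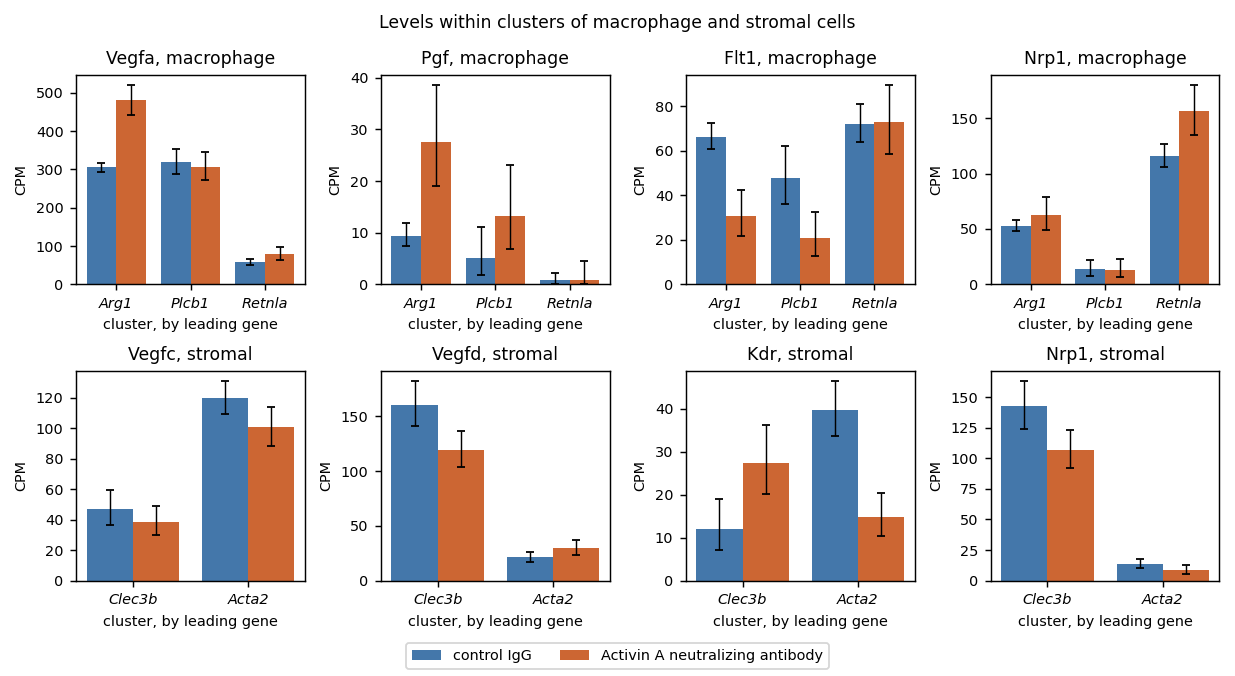
CPM (y axis, linear, from 0) of Vegfa, Pgf, Flt1 and Nrp1 in 3 macrophage clusters (top) and of Vegfc, Vegfd, Kdr and Nrp1 in 2 stromal clusters (bottom), each cluster named on the x axis by its leading gene. Blue bars are the control IgG library, orange bars the antibody library, and lines exact Poisson 95% intervals; Kdr is higher with the antibody in the Clec3b cluster and lower in the Acta2 cluster, and Flt1 is lower in the Arg1 and Plcb1 clusters but not in the Retnla cluster.

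Pgf, which binds VEGFR1 but not VEGFR2, showed the largest difference between the libraries of the members with at least 20 UMIs in macrophage cells. Macrophage cells held 91 UMIs (6.56 CPM, 5.28 to 8.05) with control IgG and 60 UMIs (15.8 CPM, 12.0 to 20.3) with the antibody, for a log2 ratio of 1.27 (0.77 to 1.75). This is a 2.40-fold difference, and Pgf was the only member of the 7 with at least 20 UMIs in macrophage cells to pass 2-fold, where 5.85% of 12299 genes did so in either direction. Its UMIs lay in 53 cells (2.97%) with control IgG and 21 cells (3.45%) with the antibody, with up to 6 and 10 in a cell. Thinned to 2000 UMIs a cell, the shares were 0.805% (0.441 to 1.35) and 1.70% (0.817 to 3.10). In T or NK cells, at the median depths given above, the unthinned shares were 0.125% and 0.0439%. The call of 2-fold rested on how the class was drawn, since with clusters as classes the log2 ratio was 0.87.

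By UMIs Pgf lay mainly in the Arg1 cluster (75 with control IgG and 33 with the antibody). Its level there was 9.45 and 27.6 CPM, for a log2 ratio of 1.54 (0.91 to 2.15). The Plcb1 cluster had 6 and 12 UMIs and the Retnla cluster 3 and 1. A few macrophage cells in a cluster led by Mgl2 and Cd209a, which is otherwise dendritic, held 7 UMIs in 59 cells and 14 UMIs in 26 cells. The level in these cells was 12.8 CPM (5.16 to 26.45) with control IgG and 61.0 CPM (33.4 to 102) with the antibody. Their log2 ratio was 2.25 (0.84 to 3.80). In stromal cells the difference ran the other way. They had 33 UMIs (5.92 CPM, 4.07 to 8.31) with control IgG and 11 UMIs (2.29 CPM, 1.14 to 4.10) with the antibody, for a log2 ratio of -1.37 (-2.50 to -0.35), and 31 of the 33 and 3 of the 11 lay in the Acta2 cluster. Given equal weight per cell the stromal ratio turned to 0.43, and without the cells that carry mesothelial markers to 0.27. Dendritic cells held 14 and 19 UMIs (7.61 and 12.9 CPM). Cancer-like cells had 7 and 5 UMIs.

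Flt1 was highest, among the larger classes, in cancer-like cells. They held 123 CPM (119 to 128) with control IgG and 142 CPM (137 to 147) with the antibody, for a log2 ratio of 0.20 (0.12 to 0.28). A UMI of Flt1 was found in 78.9% and 75.0% of cancer-like cells, against 0.553% and 0.658% of T or NK cells. Thinned to 2000 UMIs a cell, these shares were 18.1% and 23.6% among cancer-like cells, and 0.256% and 0.389% among T or NK cells. UMIs of both Vegfa and Flt1 were found in 252 of 351 cancer-like cells (71.8%) of the control IgG library and 261 of 372 (70.2%) of the other. Vegfa alone or with Flt1 was found in 316 and 337 of these deep cells and Flt1 in 277 and 279, so most cells held each gene and nothing was read from the overlap. The blood endothelial markers summed to 7.77 and 8.80 CPM in cancer-like cells, and their part in the Flt1 level was not tested.

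In macrophage cells Flt1 was lower with the antibody. Its level was 64.1 CPM (59.9 to 68.4) with control IgG and 38.6 CPM (32.6 to 45.4) with the antibody, for a log2 ratio of -0.73 (-0.99 to -0.48), which stayed between -0.80 and -0.65 in the 11 alternative settings. The share of macrophage cells with a UMI was 28.8% and 14.6%, or 11.8% and 6.79% at 2000 UMIs a cell. The difference lay in some clusters only. In the Arg1 cluster the level was 66.4 CPM with control IgG and 30.9 CPM with the antibody, for a log2 ratio of -1.10 (-1.63 to -0.62), and in the Plcb1 cluster 48.0 and 20.9 CPM, for a log2 ratio of -1.20 (-2.03 to -0.43). The Retnla cluster held 72.1 and 72.9 CPM, for a log2 ratio of 0.02 (-0.35 to 0.36). Free RNA of Flt1 moved against this, from 20.1 to 37.5 CPM.

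In the Arg1 cluster Vegfa and Pgf were thus higher, and their receptor Flt1 lower, in the antibody library. In stromal cells Flt1 was 32.8 CPM (28.2 to 37.9) with control IgG and 44.1 CPM (38.4 to 50.5) with the antibody, for a log2 ratio of 0.43 (0.14 to 0.72). In the Acta2 cluster Flt1 stood at 39.5 and 57.9 CPM (log2 ratio 0.55, 0.21 to 0.89). The Clec3b cluster had 18 and 7 UMIs (log2 ratio -1.60, -3.11 to -0.28). The Acta2 cluster held 154 of the 183 stromal UMIs with control IgG and 141 of the 212 with the antibody. Part of the level in the antibody library thus lay in stromal cells of neither cluster. With equal weight per cell the stromal ratio was 0.06, and with clusters as classes 0.14. Dendritic cells had 12 and 3 UMIs.

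Kdr, the main signalling receptor of blood endothelium, had its highest level among the larger classes in stromal cells. They held 173 UMIs (31.0 CPM, 26.6 to 36.0) with control IgG and 85 UMIs (17.7 CPM, 14.1 to 21.9) with the antibody, for a log2 ratio of -0.81 (-1.20 to -0.43). Dendritic cells held 22 UMIs (12.0 CPM, 7.50 to 18.1) and 24 UMIs (16.3 CPM, 10.4 to 24.2). Their interval thus overlapped that of stromal cells with the antibody but not with control IgG. Macrophage cells held 25 and 10 UMIs, and cancer-like cells 3 and 4 UMIs, or 0.152 and 0.200 CPM. A UMI was found in 24.2% and 17.0% of stromal cells (median 17556 and 11215.5 UMIs), and in 0.161% and 0.110% of T or NK cells. Thinned to 2000 UMIs a cell, the shares were 4.68% and 4.29% among stromal cells, and 0.0548% and 0.0686% among T or NK cells. The stromal log2 ratio was -0.32 with equal weight per cell and -0.31 when thinned. In free RNA Kdr stood at 1.27 and 1.52 CPM. Beside it, the blood endothelial markers summed to 41.2 and 30.4 CPM in stromal cells, and their part in the result was not tested.

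The stromal value of Kdr joined differences that ran in opposite directions. In the Acta2 cluster it was 39.7 CPM (155 UMIs) with control IgG and 14.8 CPM (36 UMIs) with the antibody, for a log2 ratio of -1.43 (-1.99 to -0.89). In the Clec3b cluster it was 12.1 CPM (18 UMIs) and 27.3 CPM (48 UMIs), for a log2 ratio of 1.17 (0.37 to 2.04). The stromal class also held cells with mesothelial markers (Msln, Upk3b and others of the lining of the peritoneum), and 111 cells with control IgG and 67 with the antibody had at least 2 of the 7. In these cells Kdr stood at 45.1 and 14.0 CPM, for a log2 ratio of -1.69 (-2.29 to -1.13). In the 170 and 215 stromal cells without them it stood at 10.6 and 21.1 CPM, for a log2 ratio of 1.00 (0.28 to 1.76). That split was made after the values were seen. It counted markers at each cell's own depth, without thinning, so it may also sort cells by depth. The sign of the stromal difference in Kdr therefore depended on which stromal cells were counted.

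The few endothelial cells held the receptors at much higher levels. The 7 blood endothelial cells of the control IgG library (26329 UMIs in all) held 1937 CPM of Flt1 (1442 to 2547), 379.8 CPM of Kdr (182 to 698) and 608 CPM of Nrp1 (347 to 987), with Flt1 found in 7 of them and Kdr in 4. The 1 such cell of the antibody library (65727 UMIs) held 213 CPM of Flt1 (116 to 357), 349.9 CPM of Kdr (222 to 525) and 563 CPM of Nrp1 (396 to 776). The 2 lymphatic cells held 1554 CPM of Flt4 (1291 to 1856) and 586 CPM of Nrp2 (429 to 782), and 0 UMIs of Flt1 and Nrp1. The 34 Pgf UMIs of blood endothelial cells came from the 1 cell of the antibody library. With 7 and 1 cells, endothelial levels were not compared between the libraries. Flt4, the receptor of VEGF-C and VEGF-D, was close to absent elsewhere, with 15 and 9 UMIs in stromal cells, all of them in the Acta2 cluster, and 4 and 1 in macrophage cells.

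Nrp1 was spread over many classes. T or NK cells held 81.1 CPM (78.2 to 84.1) with control IgG and 73.3 CPM (69.9 to 76.8) with the antibody, and macrophage cells 67.6 CPM (63.3 to 72.1) and 77.3 CPM (68.7 to 86.6). Dendritic cells held 52.2 and 42.0 CPM, stromal cells 48.2 and 50.2 CPM, and cancer-like cells 27.9 and 33.1 CPM. The intervals of stromal and dendritic cells overlapped in both libraries. The log2 ratio was 0.19 (-0.0011 to 0.38) in macrophage cells, 0.25 (0.08 to 0.41) in cancer-like cells, 0.06 (-0.20 to 0.31) in stromal cells and -0.31 (-0.80 to 0.16) in dendritic cells. In T or NK cells it was -0.15 (-0.23 to -0.06).

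The clusters differed far more than the libraries for this coreceptor. Among macrophage cells the Retnla cluster held 116 CPM with control IgG and 157 CPM with the antibody (log2 ratio 0.43, 0.18 to 0.68), the Arg1 cluster 52.8 and 62.7 CPM and the Plcb1 cluster 13.7 and 13.2 CPM. Nrp1 was thus highest where Vegfa was lowest among the 3 main macrophage clusters. Among stromal cells the Clec3b cluster held 143 and 107 CPM (log2 ratio -0.41, -0.70 to -0.12) and the Acta2 cluster 13.6 and 8.63 CPM. Among T or NK cells the level ran from 203 and 199 CPM in a cluster led by Adk and Cd4 to 19.3 and 9.17 CPM in a cluster led by Dapl1 and 19.0 and 15.4 CPM in the Klra8 cluster.

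Nrp2, the coreceptor of the lymphatic receptors, was led by different classes in the 2 libraries. Macrophage cells held 48.7 CPM (45.1 to 52.5) with control IgG and 53.1 CPM (46.0 to 60.9) with the antibody, and dendritic cells 43.0 CPM (34.0 to 53.5) and 79.9 CPM (66.2 to 95.7). Their intervals overlapped with control IgG but not with the antibody. The log2 ratio was 0.90 (0.47 to 1.33) in dendritic cells and 0.53 (0.36 to 0.69) in cancer-like cells, which held 26.0 and 37.4 CPM. Stromal cells held 19.9 and 17.5 CPM. T or NK cells, at 1.47 and 2.69 CPM, held little.

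The dendritic difference in Nrp2 was largest in the cluster led by Ccr7 and Fscn1, genes of mature migrating dendritic cells. There the level was 112 CPM (45 UMIs in 47 cells) with control IgG and 252 CPM (77 UMIs in 34 cells) with the antibody, for a log2 ratio of 1.16 (0.62 to 1.73). In the cluster led by Mgl2 and Cd209a it was 27.6 and 40.6 CPM (log2 ratio 0.56, -0.14 to 1.26). A UMI of Nrp2 was found in 19.2% and 22.1% of dendritic cells, or 6.39% and 11.7% at 2000 UMIs a cell, against 0.292% and 0.320% of T or NK cells.

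**Figure D3:**
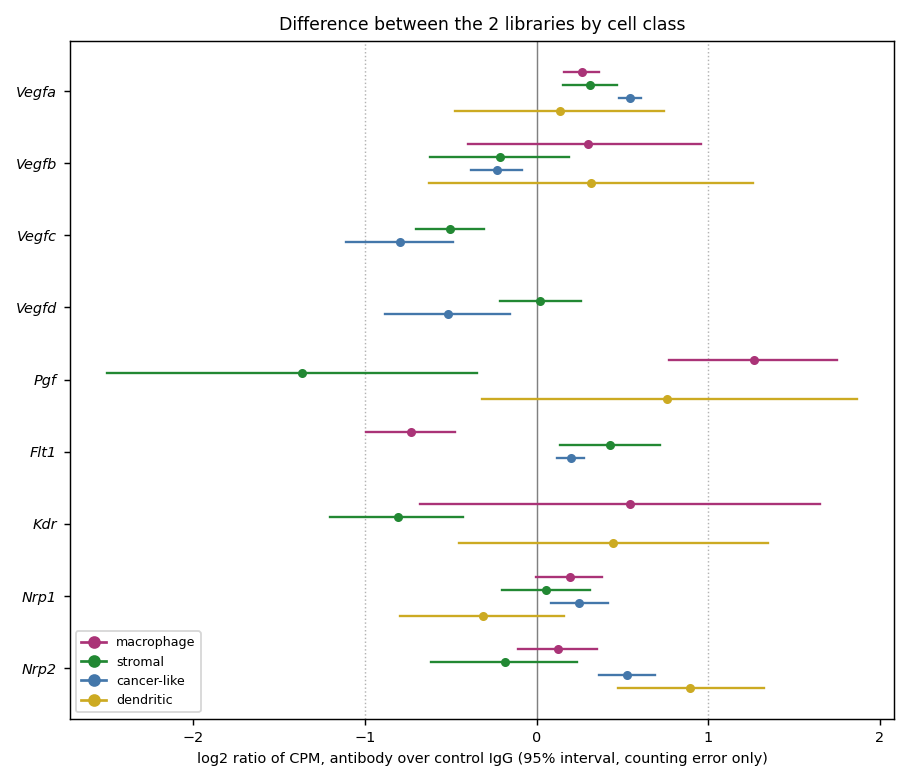
Log2 ratio of CPM, antibody over control IgG (x axis), for each gene (y axis) in macrophage, stromal, cancer-like and dendritic cells (colours), where the class held at least 20 UMIs of the gene. Points are the ratio of the 2 libraries and lines its 95% interval for counting error, with dotted lines at a 2-fold difference; Pgf is beyond 2-fold in macrophage and stromal cells, in opposite directions.

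Set among all genes, few of the 9 stood far out. In macrophage cells 7 had at least 20 UMIs over both libraries, and 1 of them (Pgf) passed 2-fold, beside the 5.85% of genes given above. In stromal cells 1 of 9 (Pgf, lower) did so, beside 6.3% of 12959 genes. In cancer-like cells 0 of 7 passed, beside 5% of 14082 genes, and in dendritic cells 0 of 6, beside 4.45% of 9300 genes. The median log2 ratio of the members with at least 20 UMIs was 0.26 in macrophage, -0.19 in stromal, 0.20 in cancer-like and 0.38 in dendritic cells, against 0.03, 0.03, -0.06 and 0.01 over all genes. In cancer-like cells Vegfa, Flt1, Nrp1 and Nrp2 were higher and Vegfb, Vegfc and Vegfd lower with intervals off 0. Vegfd turned to 0.66 when thinned, on only 3 and 5 cells with a UMI. The share of all genes with an interval off 0 was not counted, so nothing was read from how many members had one.

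**Figure D4:**
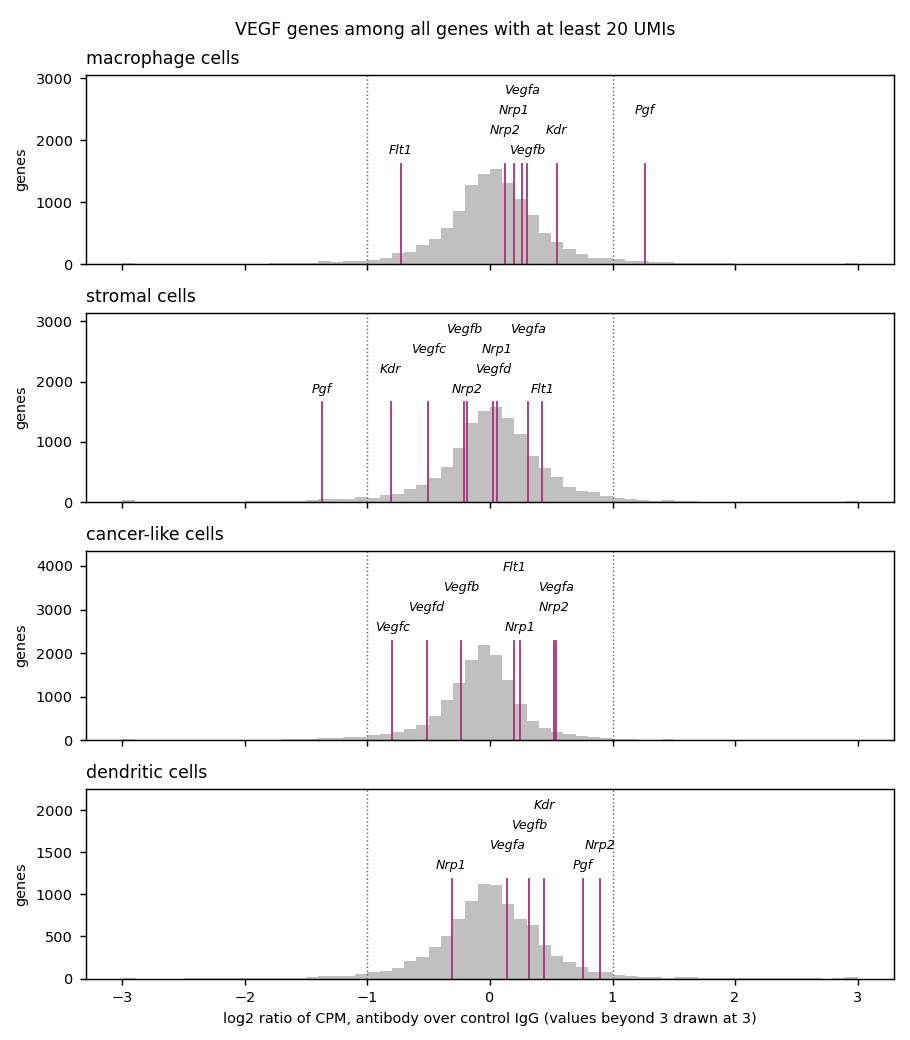
Number of genes (y axis) by log2 ratio of CPM, antibody over control IgG (x axis), for all genes with at least 20 UMIs in macrophage, stromal, cancer-like and dendritic cells, as grey bars. Purple lines mark the members and dotted lines a 2-fold difference; the members lie mostly inside 2-fold, with Pgf outside it in macrophage and stromal cells.

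The genes around the family were read as lists. Beside them, 5.85%, 6.3%, 5% and 4.45% of all genes passed 2-fold in macrophage, stromal, cancer-like and dendritic cells. The medians over all genes were 0.03, 0.03, -0.06 and 0.01. The lists are short, so nothing was read from how many of their genes passed 2-fold. A first list of 13 genes held Flt4, plexins and class 3 semaphorins, where the semaphorins are ligands and not VEGF receptors or coreceptors. Of 4 tested in macrophage cells, 0 were higher and 1 lower by 2-fold. The counts were 0 and 0 of 12 in stromal cells, 1 and 0 of 12 in cancer-like cells, and 0 and 0 of 1 in dendritic cells. The gene lower in macrophage cells was Plxna4, a plexin that pairs with neuropilins (61 and 6 UMIs, log2 ratio -1.48, -2.98 to -0.27), which in cancer-like cells was instead higher (182 and 339 UMIs, 0.87, 0.61 to 1.14). The gene higher in cancer-like cells was Sema3b (8 and 21 UMIs). Sema3a, a ligand of Nrp1, was higher in stromal cells (524 and 719 UMIs, 0.67, 0.51 to 0.84). The list's medians were 0.29, 0.35, 0.23 and 0.28 in the same order of classes.

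Of 12 genes of VEGF processing and release, 0 of 7 passed 2-fold in macrophage cells (median -0.19), 1 was higher and 1 lower of 12 in stromal cells (0.04), 1 was higher of 10 in cancer-like cells (0.05), and 0 of 4 passed in dendritic cells (0.13). Pcsk5, a convertase that can mature VEGF-C, was the stromal gene that was higher, with 348 UMIs with control IgG and 812 with the antibody (log2 ratio 1.44, 1.26 to 1.62), and Mmp9 the lower (14 and 6 UMIs, interval over 0). Pcsk6, of the same enzyme family, was higher in cancer-like cells (66 and 140 UMIs, 1.06, 0.63 to 1.51). Vegfc itself was lower in both classes.

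Hypoxia response genes numbered 20. The genes named are those with the largest absolute ratios, and a link to Vegfa was not tested. In cancer-like cells 0 of 19 passed 2-fold with a median of 0.12. Those named there are Hilpda (0.75, 0.63 to 0.86), Epas1 (0.61, 0.10 to 1.12), Ankrd37 (0.51, 0.34 to 0.67) and Adm (0.48, 0.35 to 0.61). In macrophage cells 1 of 18 was higher, Epas1 (1.20, 0.60 to 1.79), with a median of -0.16. Eno1 (-0.57, -0.66 to -0.49), Aldoa (-0.52, -0.57 to -0.47) and Adm (-0.52, -1.46 to 0.32) came next there, all lower. In stromal cells 1 of 19 was higher, Ankrd37 (1.15, 0.66 to 1.65), with a median of -0.13. Adm (0.66, 0.40 to 0.92), Vldlr (0.56, 0.31 to 0.82) and Hilpda (0.55, 0.27 to 0.84) came next there. In dendritic cells 2 of 15 were higher, Ankrd37 (1.51, 0.74 to 2.32) and Egln3 (10 and 17 UMIs), with a median of 0.03.

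Of the 10 endothelial VEGF response genes, Kdr among them and counted with the members, 1 of 4 was higher in macrophage cells (Nr4a1, 1.31, 1.19 to 1.42; median 0.48) and 1 of 5 lower in stromal cells (Aplnr, with 26 UMIs and 1 UMI, -4.48, -9.84 to -1.88; median 0.31). In cancer-like cells 0 of 6 passed (median 0.29), with Apln, the apelin ligand, at 0.90 (0.57 to 1.23). In dendritic cells 1 of 3 was higher (Egr3) and 1 lower (Rcan1, interval over 0), with a median of 0.63. Nr4a1 and Egr3 are immediate-early genes that many signals raise.

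Among 12 angiogenesis inhibitors 1 of 7 was higher in macrophage cells (Pf4, platelet factor 4, 1.23, 1.13 to 1.32; median 0.51), 0 of 9 passed in stromal cells (-0.23) and 0 of 2 in dendritic cells (-0.01). In cancer-like cells 2 of 10 were higher and 1 lower (median -0.10). They were Thbs1 (thrombospondin 1, 1.24, 1.02 to 1.46), Cxcl10 (1.17, 1.08 to 1.26) and Timp3 (-1.96, -2.49 to -1.46). Thbs1 ran the other way in stromal cells (-0.81, -0.90 to -0.71). Of 7 angiopoietin pathway genes 1 of 5 passed 2-fold, Angpt4 in stromal cells (9 and 16 UMIs, 1.05, -0.22 to 2.41; median 0.28), with 0 of 2 in macrophage cells (0.32) and 0 of 4 in cancer-like cells (-0.02). Of 11 other growth factors of vessels 0 of 4, 0 of 10, 0 of 9 and 0 of 1 passed in macrophage, stromal, cancer-like and dendritic cells (medians -0.25, 0.03, -0.08 and -0.06), while Pdgfa was lower in the first 3 (-0.62, -0.72 and -0.47).

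Across the classes with at least 20 cells in each library (14 points), the genes with the most similar pattern were found by Pearson correlation of log2(CPM + 10) among 16030 genes with at least 50 UMIs. The points share libraries and depth, and the correlation is a description. For Vegfa they were Tgfbi (0.96), Ctsl (0.96) and Rnf217 (0.96). For Flt1 they were Trf (0.96), Spp1 (0.95) and F830016B08Rik (0.95), and for Pgf Depdc7 (0.94), Gpr85 (0.93) and Gm47863 (0.91). The stromal ligands were closest to Phldb2 (0.97), Rbfox1 (0.97) and Col5a3 (0.97) for Vegfc, and to Kcnt2 (1.00), Cd34 (1.00) and Frk (1.00) for Vegfd. Kdr was closest to Ephb2 (0.95), Prr15 (0.93) and B4galt4 (0.92), and Vegfb to Cxxc5 (0.97), Pla2g12a (0.95) and Yars2 (0.93). The coreceptors had looser neighbours, with Dctn4 (0.92), Rcan3 (0.92) and Hk1 (0.91) for Nrp1 and 2310040G24Rik (0.94), Tcp11l1 (0.90) and Rnh1 (0.90) for Nrp2.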

How the data were processed

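The deposited matrices hold raw counts of UMIs for each gene in each droplet, made by the authors with Cell Ranger (version 4 in the file headers, 7.0.1 in the submitters' processing notes, which name mm10), without normalization or a cell filter. The sample labels name 3′ chemistry v2 and the paper a later one, and whether intronic reads were counted is not given in the sources used here. Kept were cells of 1000 to 8500 genes and 1000 to 100000 UMIs whose mitochondrial share was no more than 10%, the limits of the study. They held 80208236 UMIs with control IgG (median 5719 a cell) and 57416419 with the antibody (4660). Doublets were kept. A cell took the class with the highest mean of its 3 highest markers (log of counts per 10000), if at least 2 were detected and the lead was 0.25 or more. A lead under 0.5 was found in 76 of 2391 macrophage, 11 of 563 stromal, 19 of 723 cancer-like and 71 of 382 dendritic cells. This rule was set with the data in view, and a difference from the study's cell types may come from it. Clusters within classes are from Leiden clustering without the 9 genes (scanpy 1.11.5, 2000 variable genes, 30 components, 15 neighbours, resolution 1.0, seed 1). CPM are summed UMIs per 1000000, with ratios for genes with at least 20 UMIs over both libraries and a 2-fold threshold. The TMM factor came from edgeR 4.0.16. Ratio intervals were tried on simulated Poisson counts, the kind of count that they assume. These have no spread between cells or libraries, so the trial could not show how far the intervals understate it. Named genes were the 9 members, Flt4, the genes of each list with the largest ratios (at most 4 a class) and the 3 genes most similar to each member. The members and lists were chosen with earlier results of these data known.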

Additional observations from a re-analysis of the deposited data

Results flagged for a closer look

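Some genes had intervals off 0 in opposite directions, and no difference between classes or clusters was tested. Pgf had a log2 ratio of 1.27 in macrophage cells and -1.37 in stromal cells. The stromal value of Pgf reversed to 0.43 as a mean of cells and to 0.27 without cells with mesothelial markers. Flt1 had -0.73 in macrophage cells, 0.43 in stromal cells and 0.20 in cancer-like cells. Its stromal value fell to 0.06 as a mean of cells and to 0.14 with clusters as classes. Within stromal cells Flt1 had -1.60 in the Clec3b cluster, on 25 UMIs, and 0.55 in the Acta2 cluster. Kdr had 1.17 in the Clec3b cluster and -1.43 in the Acta2 cluster.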

How the results depend on the processing

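With 1 library a group, leaving out a replicate was not possible. No paired analysis was possible because the groups have 1 library each and no result comes from a test. Each member's log2 ratio in whichever of the macrophage, stromal, cancer-like and dendritic classes held most of its UMIs was recomputed under 10 alternatives (11 in macrophage cells and 12 in stromal cells, where the weighting of clusters and the removal of cells with mesothelial markers were chosen after seeing the data). Values outside the counting interval were, for Vegfa in cancer-like cells, 0.61 with the TMM factor and 0.38 thinned to 2000 UMIs. Thinning gave -0.80 for Vegfb, 0.30 for Flt1 and 1.18 for Nrp2 in cancer-like cells, and -0.99 for Vegfc and -0.31 for Kdr in stromal cells. Vegfc was -0.25 with the clusters weighted as in control IgG, Kdr -0.32 as a mean of cells, and Vegfd -0.35 without cells with mesothelial markers. Kdr reversed to 1.00 without these cells. Pgf in macrophage cells lay between 0.87 (clusters as classes, under 2-fold) and 1.71 (thinned). Outside that class, Vegfd in cancer-like cells reversed to 0.66 when thinned, on only 3 and 5 cells with a UMI. Pgf in stromal cells reversed to 0.43 as a mean of cells and 0.27 without cells with mesothelial markers. Vegfa in macrophage cells was 0.14 with clusters as classes, as was Flt1 in stromal cells, and thinned stromal values were 0.08 for Vegfa and -0.01 for Pgf. Levels are compared as the log2 ratio of the highest over the next of the macrophage, stromal, cancer-like and dendritic classes, by mean CPM of both libraries. T or NK cells, which held more Nrp1 than macrophage cells with control IgG, were not part of this. Nrp1 reversed to -0.12 as a mean of cells (macrophage over stromal). Vegfa (macrophage over cancer-like) moved to 0.27 with the stricter gate and 0.14 with clusters, Pgf (macrophage over dendritic) to -0.62 with clusters, and Nrp2 (dendritic over macrophage) to 0.03 with clusters and 0.62 with free RNA subtracted. Vegfc and Vegfd (stromal over cancer-like) moved to 2.88 and 3.68 as a mean of cells. Genes past 2-fold without a filter on low counts numbered 3313 in macrophage, 4269 in stromal, 4275 in cancer-like and 3457 in dendritic cells, against 719, 817, 704 and 414 with it. The causes were not tested, except that thinning keeps few UMIs of the deeper cells and the unfiltered counts add genes of 1 to 19 UMIs. The free RNA of dendritic cells was put at 22.5% and 32.7% of their UMIs, from immunoglobulin and haemoglobin genes, which is uncertain.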
